A study of Mus musculus with 9 samples.

Results

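The liver breaks down most amino acids of the diet and of its own proteins, and 41 genes that encode enzymes of this breakdown were followed here across all 9 RNA sequencing libraries of a mouse liver series. The genes were taken by symbol from a fixed list of enzymes, grouped into 10 routes by amino acid, and all 41 were found among the 57010 rows of the gene table. All 41 also passed the filter on low counts that left 13686 genes for testing, and the lowest count of a member in any library was 117. The libraries came from liver of male BALB/c mice, a common inbred strain. The 3 AT3 libraries carry the same treatment label as the 3 CPT libraries, acute liver injury from cisplatin, a platinum-based chemotherapy drug, and the 3 CON libraries were untreated. The abbreviation AT3 is not spelled out in the labels, and atractylenolide III, a plant compound, appears only in the title of the series as a remedy for this injury. The sources used here do not give dose, age or time of sampling. Whether each library stands for an animal of its own is not stated, so the p-values rest on differences between libraries that may in part be technical.

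Most of these enzymes are made by hepatocytes, the main cell of the liver. Transaminases and dehydratases take off the nitrogen, which goes to urea, and the carbon skeletons feed glucose synthesis or the citric acid cycle. Several of the enzymes, such as tyrosine aminotransferase, tryptophan dioxygenase and serine dehydratase, are textbook examples of liver genes that respond to glucocorticoids, glucagon and fasting.

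Library totals ran from 21485021 to 28480479 counts. Of the 7 hepatocyte markers, albumin and transthyretin among them, 2 rose and 2 fell in CPT over CON. They summed to 96070 to 103500 CPM in AT3, 66790 to 86160 CPM in CPT and 70500 to 75910 CPM in CON. Of 6 kidney tubule markers 5 were at 0 in every library. Exocrine pancreas markers summed to 9.935 to 10.9 CPM in AT3, 8.73 to 10.2 CPM in CPT and 18.6 to 25.3 CPM in CON. Hepatocyte markers stood far above those of both other tissues, so the tissue label held. CPM is the count of a gene scaled to the TMM-adjusted library total. Other markers moved with the groups. The 6 sinusoidal endothelial markers summed to 6.0 to 12.4 CPM in AT3, 5.32 to 7.35 CPM in CPT and 52.4 to 56.0 CPM in CON, and the 6 neutrophil markers to 9.48 to 10.7 CPM in AT3, 19.9 to 44.2 CPM in CPT and 2.82 to 3.15 CPM in CON; 5 of 6 endothelial markers fell and all 3 tested neutrophil markers rose in CPT over CON. Markers of periportal hepatocytes, the zone in which much of amino acid breakdown takes place, summed to 8911 to 9526 CPM in AT3, 6705 to 8254 CPM in CPT and 3522 to 3890 CPM in CON; 6 of 8 rose and 2 fell in CPT over CON. Of 10 pericentral markers 1 rose and 6 fell, and their sum was 3925 to 4456 CPM in AT3, 3740 to 5380 CPM in CPT and 5411 to 6238 CPM in CON. Erythroid markers summed to 38.4 to 44.5 CPM in AT3, 42.7 to 50.9 CPM in CPT and 797 to 908 CPM in CON. The part of these markers in the results on the enzymes was not tested, and in bulk tissue fewer cells of a type and less RNA per cell cannot be told apart. Mitochondrially encoded transcripts took 9.80% to 11.4% of counts in AT3, 11.2% to 16.3% in CPT and 25.8% to 36.8% in CON, which bears on every value scaled to the library total.

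On TPM, the authors' measure per transcript length, the 41 enzymes together made up 1.46% ± 0.0422 of all transcripts in AT3, 1.21% ± 0.0877 in CPT and 0.410% ± 0.0831 in CON (SD, n = 3 each). Methionine enzymes held 57.4% ± 0.628 of that sum in AT3, 58.1% ± 0.761 in CPT and 25.1% ± 1.43 in CON, while tyrosine enzymes held 22.5% ± 0.478 in AT3, 22.7% ± 0.242 in CPT and 44.6% ± 1.70 in CON. The most abundant member per length was Bhmt in AT3 and CPT, at 4547 ± 167 and 4011 ± 161 TPM, and Hpd in CON, at 1318 ± 194 TPM. At the low end Acmsd stood at 7.93 ± 0.245 TPM in AT3, 4.36 ± 0.679 TPM in CPT and 3.13 ± 0.544 TPM in CON. The median member averaged 163 CPM over the 9 libraries, against 6.49 CPM for all tested genes.

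**Figure D1:**
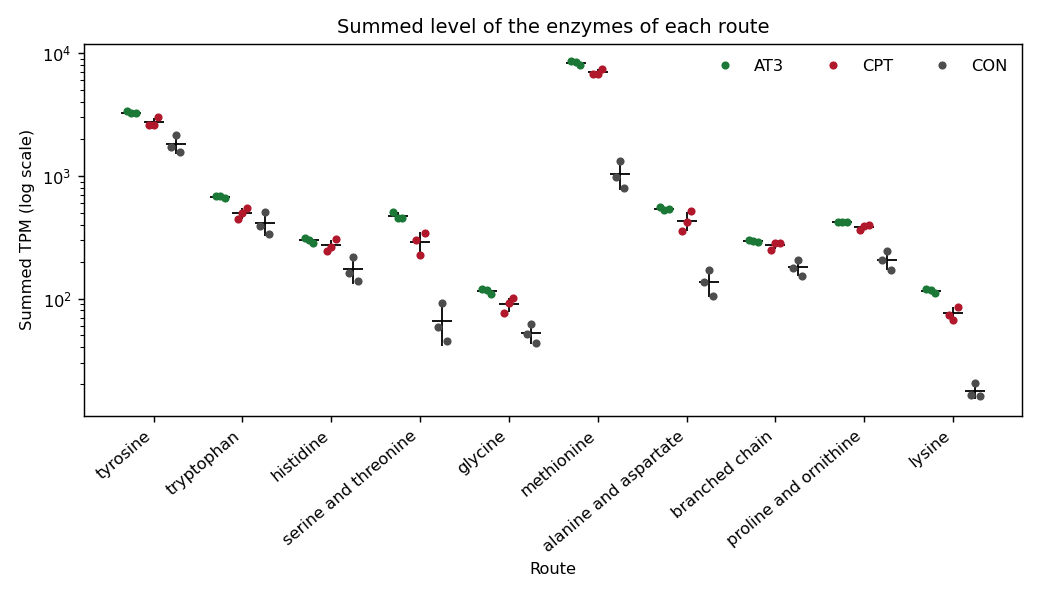
Summed TPM (log axis) of the enzymes of each of the 10 routes in AT3, CPT and CON; points are libraries, horizontal marks group means and vertical bars the SD over 3 libraries. The methionine route summed to 8366 TPM in AT3, 7012 TPM in CPT and 1038 TPM in CON.

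The comparison of CPT with CON asks how the enzymes stood in the injured liver. All members of the serine and threonine (2), alanine and aspartate (3) and lysine (1, Aass) routes were higher in CPT. So were 6 of 7 methionine enzymes and most tyrosine enzymes. The first 3 enzymes of histidine breakdown were lower on the CPM scale, and the remaining routes were mixed on it. Of the 41 members 22 rose (53.7%, against 30.0% of all tested genes) and 9 fell (22.0%, against 30.8%), while 10 did not pass edgeR's quasi-likelihood test at an adjusted p of 0.05. The share that rose was above that of all genes and the share that fell below it. The median log2 fold change was 0.33 for the members and -0.0192 for all tested genes. The members' median was 0.50 without CPT_1 and 0.85 on log2(TPM + 1), where that of all tested genes was 0.29. With a call, 15 members changed at least 2-fold (36.6% of members, against 28.9% of tested genes).

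In the methionine route 6 of 7 members rose and none fell, with a median log2 fold change of 1.64. Mat1a (chr14:41105035-41124412, GRCm38, GENCODE M21 annotation, as for all positions of genes here), which makes S-adenosylmethionine, had 7617, 7232 and 7765 CPM in AT3, 6354, 6178 and 7002 CPM in CPT, and 923, 1057 and 797 CPM in CON. It was the member with the highest fold change, 7.04-fold in CPT over CON (log2 2.81 ± 0.127 SE, adjusted p = 7.09e-11). Bhmt (chr13:93616675-93637961), which remethylates homocysteine with betaine, had 10540, 10570 and 10730 CPM in AT3, 10910, 9234 and 9780 CPM in CPT, and 1843, 2211 and 1789 CPM in CON. The CPT and CON libraries of Bhmt did not overlap, and the fitted change was 5.12-fold (adjusted p = 3.22e-10). Cth (chr3:157894248-157925077), the last enzyme of transsulfuration, which turns cystathionine into cysteine, had 558, 518 and 500 CPM in AT3, 322, 382 and 416 CPM in CPT, and 101, 98.5 and 88.5 CPM in CON, with no overlap between any groups. Cth rose 3.89-fold in CPT over CON, while Cbs, the enzyme before it, rose by 1.2-fold (adjusted p = 0.0319) and lost its call in some fits with a library left out. Bhmt2, a neighbour of Bhmt that uses S-methylmethionine, rose 2.38-fold.

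Gnmt (chr17:46725664-46729168), which spends S-adenosylmethionine to methylate glycine, was the member whose CPT libraries lay farthest apart. It had 456, 385 and 430 CPM in AT3, 137, 263 and 403 CPM in CPT, and 86.3, 104 and 67.7 CPM in CON. No CPT library overlapped CON, and the highest CPT library reached into the range of AT3. The change was 3.12-fold for CPT over CON (log2 1.64 ± 0.266 SE, adjusted p = 7.28e-05).

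Ahcy, which hydrolyses S-adenosylhomocysteine, was the methionine member that did not pass the test, with a log2 fold change of -0.26 (adjusted p = 0.0789). Its reads cannot be counted apart with certainty, because 93.2% of the 31-base words of the longest transcript of another row, Ahcyl on chromosome 16, also occur in Ahcy transcripts. Ahcyl had 2511, 2178 and 2420 CPM in AT3, 1705, 1662 and 1954 CPM in CPT, and 746, 865 and 741 CPM in CON, well above Ahcy itself, at 207, 190 and 202 CPM in AT3, 253, 211 and 194 CPM in CPT, and 237, 240 and 309 CPM in CON. With the counts of both rows summed, a step added after the values were seen, the sum rose in CPT over CON by 0.93 on the log2 scale (SE 0.105, adjusted p = 1.82e-06). The share of Ahcy in the TPM of the pair was 6.46% ± 0.184 in AT3, 9.17% ± 1.65 in CPT and 21.5% ± 3.44 in CON.

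**Figure D2:**
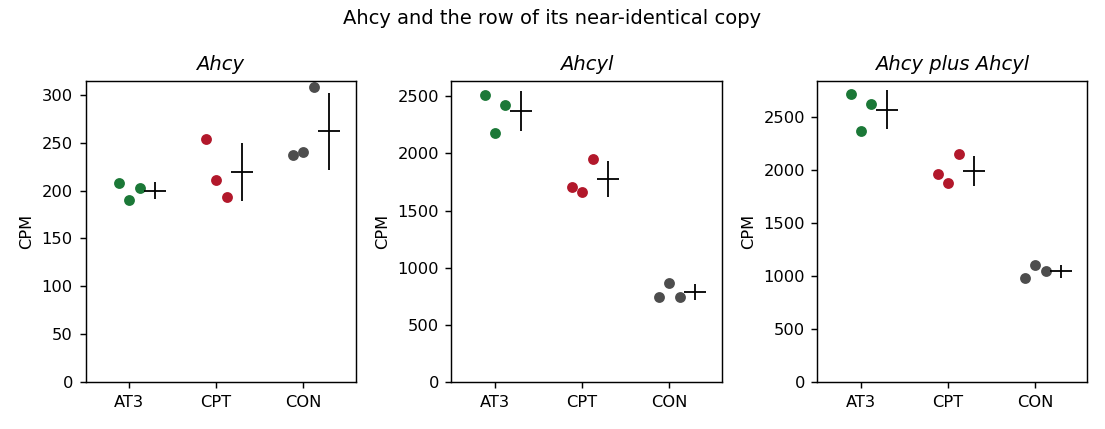
CPM of Ahcy, of its near-identical copy Ahcyl, and of both rows summed in AT3, CPT and CON; points are libraries, and the bar beside them is the mean with the SD over 3 libraries. The CON libraries of Ahcy lie at 237 to 309 CPM, level with or above the other groups, whereas the summed row is lowest in CON, at 984 to 1106 CPM.

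Of the tyrosine enzymes Tat, Hgd and Fah rose and Hpd did not pass the test. Tat (chr8:109990437-109999803), the aminotransferase that opens the route, had 2301, 2282 and 2424 CPM in AT3, 1597, 1307 and 1867 CPM in CPT, and 422, 499 and 462 CPM in CON, with no overlap between any groups. Its change in CPT over CON was 3.45-fold (log2 1.79 ± 0.128 SE, adjusted p = 1.25e-08). Hgd, homogentisate dioxygenase, had 395, 348 and 395 CPM in AT3, 274, 269 and 353 CPM in CPT, and 168, 170 and 137 CPM in CON, a rise of 1.88-fold in CPT over CON. Fah, the last enzyme of the route, rose 1.34-fold, and Hpd, the dioxygenase between Tat and Hgd, had a log2 fold change of -0.20 (adjusted p = 0.0898).

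On the CPM scale tryptophan enzymes split evenly: Tdo2 and Kmo rose, Haao and Afmid fell, and Kynu and Acmsd did not pass the test. On log2(TPM + 1) Kynu and Acmsd were called higher and Afmid had no call. Tdo2 (chr3:81957090-81976202), the dioxygenase that opens the kynurenine pathway, had 781, 781 and 736 CPM in AT3, 398, 555 and 614 CPM in CPT, and 207, 249 and 234 CPM in CON. The rise in CPT over CON was 2.27-fold (adjusted p = 2.28e-06). Kmo, which hydroxylates kynurenine, had 124, 121 and 121 CPM in AT3, 103, 93.9 and 118 CPM in CPT, and 64.7, 62.1 and 57.2 CPM in CON, a rise of 1.71-fold. Haao, which acts 2 steps after Kmo on the way to NAD, fell to 0.57 of its CON level (adjusted p = 7.65e-06). Afmid, which removes the formyl group after Tdo2, had 32.7, 30.0 and 36.9 CPM in AT3, 17.9, 22.5 and 25.9 CPM in CPT, and 35.5, 28.7 and 31.8 CPM in CON (log2 fold change of CPT over CON -0.53, adjusted p = 0.00257). Afmid shares 41.9% of its 31-base words with the overlapping row Gm20708, which had 33.1, 36.7 and 26.6 CPM in CPT and 115, 122 and 111 CPM in CON, so the split of reads between these rows bears on its value.

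The histidine route was the one in which most members fell. Hal, Uroc1 and Amdhd1, the enzymes that open the route, in this order, were lower in CPT, and Ftcd, which passes the last carbon to folate, was higher. Amdhd1 (chr10:93523338-93540033), imidazolonepropionase, had 27.1, 30.4 and 29.6 CPM in AT3, 33.1, 33.0 and 34.4 CPM in CPT, and 116, 137 and 121 CPM in CON. It was the member that fell furthest, by 1.90 on the log2 scale (SE 0.0963, adjusted p = 2.63e-10). Hal (chr10:93488768-93519304), histidase, whose gene ends 4.03 kb from the end of Amdhd1, had 52.7, 53.2 and 61.5 CPM in AT3, 49.9, 41.5 and 52.3 CPM in CPT, and 89.0, 101 and 91.9 CPM in CON. It fell by 0.97 on the log2 scale (adjusted p = 1.38e-06). Ftcd had 441, 419 and 414 CPM in AT3, 397, 401 and 450 CPM in CPT, and 225, 234 and 220 CPM in CON, a rise of 1.84-fold. The direction of Uroc1, urocanase, depends on the scale: it fell by 0.53 on the CPM scale (adjusted p = 0.000152), but its log2(TPM + 1) difference was 0.07, and Hal was -0.26 on that scale, without a call.

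Serine and threonine dehydratases rose together. Sds (chr5:120476526-120483932), serine dehydratase, had 445, 389 and 428 CPM in AT3, 288, 195 and 316 CPM in CPT, and 70.5, 92.8 and 61.2 CPM in CON, a rise of 3.55-fold in CPT over CON (log2 1.83 ± 0.171 SE, adjusted p = 2.28e-07). Its neighbour Sdsl, 3.72 kb away, had 26.2, 21.5 and 26.4 CPM in AT3, 21.1, 18.3 and 20.8 CPM in CPT, and 7.08, 9.07 and 6.59 CPM in CON. The rise of Sdsl was 2.62-fold (adjusted p = 2.91e-07). Aass (chr6:23072173-23132986), which carries out the first steps of lysine breakdown, had 424, 406 and 417 CPM in AT3, 299, 248 and 316 CPM in CPT, and 95.9, 100 and 109 CPM in CON, and rose 2.83-fold.

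The 4 proteins of the glycine cleavage system, which work as 1 complex in mitochondria, did not move together. Amt (chr9:108296853-108302302), the T protein, had 17.0, 16.2 and 17.1 CPM in AT3, 18.0, 15.4 and 15.4 CPM in CPT, and 51.7, 49.7 and 47.2 CPM in CON, and fell by 1.61 on the log2 scale (SE 0.0958, adjusted p = 1.5e-09). Dld, the L protein that 2-oxo acid dehydrogenases also use, had 63.4, 64.2 and 59.6 CPM in AT3, 50.4, 59.0 and 57.1 CPM in CPT, and 28.9, 35.3 and 24.9 CPM in CON, a rise of 1.86-fold, and Gcsh, the H protein, rose 1.49-fold. Gldc, the P protein that decarboxylates glycine, had a log2 fold change of -0.06 and did not pass the test.

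The subunits of the branched chain 2-oxo acid dehydrogenase also differed. Bckdhb, the beta subunit of its E1 part, had 67.8, 65.3 and 72.9 CPM in AT3, 38.6, 52.0 and 61.2 CPM in CPT, and 19.5, 21.9 and 13.9 CPM in CON, a rise of 2.73-fold in CPT over CON (adjusted p = 2.19e-06). Dbt, the E2 core, had 31.7, 32.1 and 29.4 CPM in AT3, 29.1, 33.9 and 25 CPM in CPT, and 45.5, 49.5 and 61.0 CPM in CON, and fell by 0.82 on the log2 scale (adjusted p = 3.65e-05). Bckdha, the alpha subunit of E1, did not pass the test, nor did Ivd, Mccc1 and Mccc2 of leucine breakdown. The log2 fold changes of these members were 0.13 to 0.33. On log2(TPM + 1) Bckdha, Ivd and Mccc2 were called higher, while Mccc1 and Dbt had no call. Bckdha overlaps B3gnt8 on the other strand over 61.7% of its exon bases, and B3gnt8 stood at 1.22 to 2.94 CPM in all libraries.

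Transaminases of alanine and aspartate rose, all 3 of them. Gpt, the cytosolic alanine transaminase whose activity in plasma is a clinical sign of liver damage, had 301, 265 and 297 CPM in AT3, 179, 209 and 266 CPM in CPT, and 66.7, 80.7 and 53.8 CPM in CON, a rise of 3.25-fold in CPT over CON (adjusted p = 1.57e-07). Got2, the mitochondrial aspartate transaminase, had 585, 561 and 630 CPM in AT3, 476, 485 and 605 CPM in CPT, and 302, 309 and 273 CPM in CON, and rose 1.77-fold. Gpt2, the mitochondrial alanine transaminase, rose by 1.22-fold (adjusted p = 0.0198), a call that was lost when some single libraries were left out. Gpt thus held 83.7% ± 1.31 of the TPM of Gpt and Gpt2 in AT3, 82.9% ± 2.52 in CPT and 64.4% ± 3.18 in CON; a two-sided exact permutation test of CPT against CON gave p = 0.1, the smallest that 3 against 3 libraries allow (0.15 after Benjamini-Hochberg adjustment over 15 such tests).

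In the proline and ornithine route Oat rose, Prodh and Prodh2 fell, and Aldh4a1 did not pass the test. Oat, ornithine aminotransferase, had 576, 595 and 642 CPM in AT3, 576, 536 and 579 CPM in CPT, and 293, 264 and 285 CPM in CON, a rise of 2.01-fold in CPT over CON (adjusted p = 2.36e-07). Prodh2, which oxidises hydroxyproline, had 46.5, 44.4 and 51.4 CPM in AT3, 52.9, 71.0 and 54.2 CPM in CPT, and 115, 113 and 107 CPM in CON, and fell by 0.91 on the log2 scale. Prodh, proline oxidase, fell by 0.63.

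The 22 rises and 9 falls depend in part on how libraries are scaled. With upper-quartile scaling, where the median of all tested genes lay at -0.124, Hpd (-0.30) and Ahcy (-0.36) were also called lower. Cbs and Gpt2 had no call with that scaling. On log2(TPM + 1) with limma-trend, where the median of all tested genes lay at 0.29, 29 members were called higher (48.5% of all tested genes were) and 3 lower, namely Haao, Amdhd1 and Amt (11.7% of all tested genes). Besides Hal and Uroc1, the falls without a call on that scale were those of Prodh2 (-0.40), Dbt (-0.19), Prodh (-0.07) and Afmid (-0.05). Members called higher there but not on CPM were Ivd (0.85), Aldh4a1 (0.82), Kynu (0.62), Mccc2 (0.42), Acmsd (0.38), Ahcy (0.33) and Bckdha (0.28).

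Deposited counts and TPM of a gene together imply an effective transcript length in each library, taken as counts over TPM. Under limits chosen after the values were seen (at least 1 TPM and 50 counts, a limma adjusted p under 0.05 and a difference of at least 0.2 on the log2 scale), it differed in CPT against CON for 10 of 41 members, against 9.19% of 6843 genes. Among these 10, Bckdha (0.51) and Bckdhb (0.51) had the highest differences and Kmo (-0.33) the lowest. Relative to the median gene of each library, the log2 length of Kmo was 0.56 to 0.57 in AT3, 0.57 to 0.59 in CPT and 0.84 to 0.96 in CON. In AT3 against CPT it differed for 0 members (0.0146% of genes) and in AT3 against CON for 13 (14.5% of genes).

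**Figure D3:**
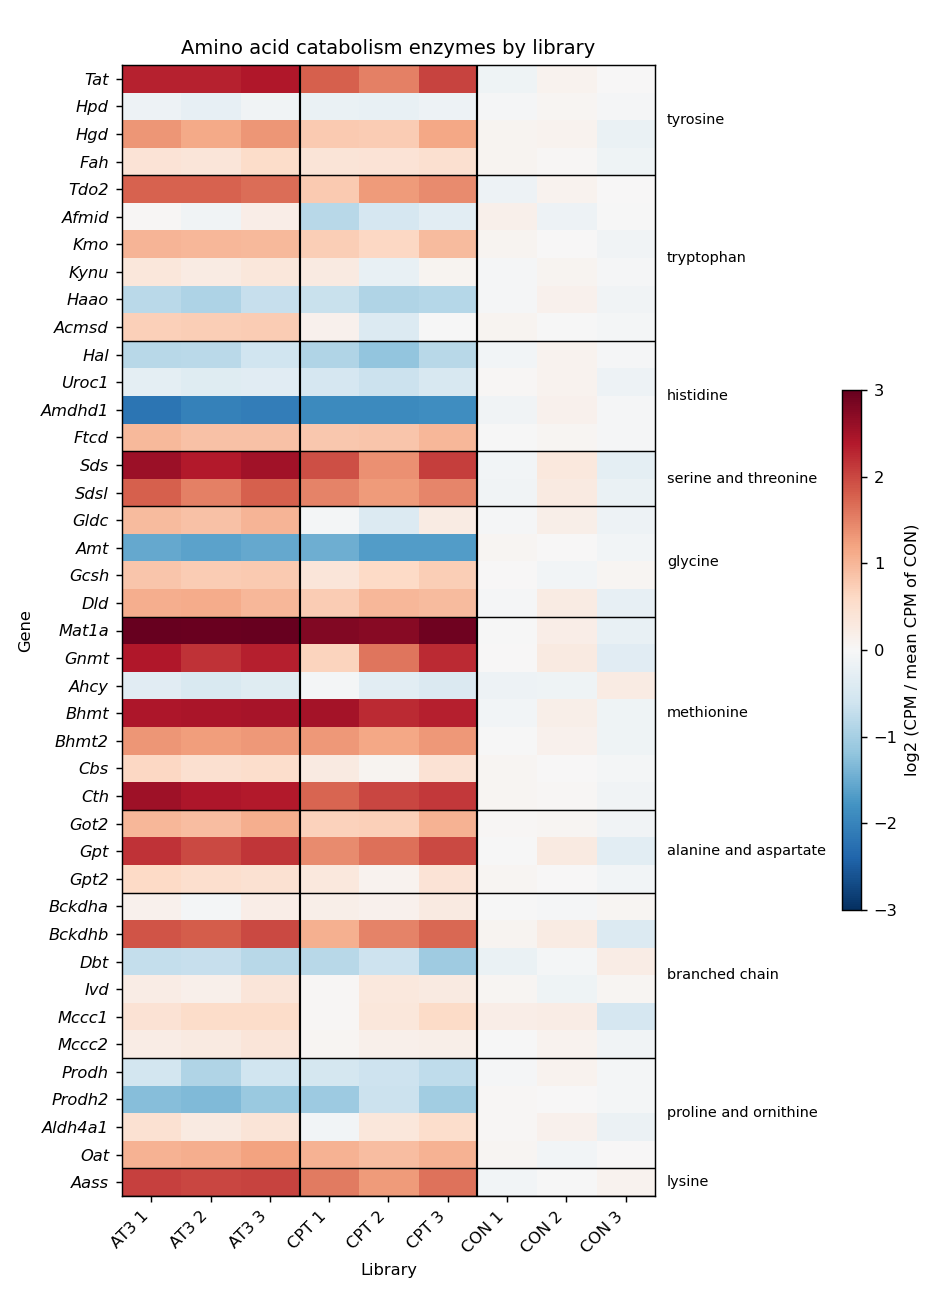
CPM of the 41 enzymes in each of the 9 libraries as log2 of the ratio to the mean of CON, with AT3, CPT and CON in columns and genes in rows by route. Mat1a, Bhmt and Cth are deep red in AT3 and CPT, Amdhd1 and Amt are blue in both, and Gldc and Acmsd are red in AT3 and near 0 in CPT.

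The labels do not say that AT3 stands for the compound named in the title. If it does, the comparison of AT3 with CPT bears on whether that compound changes the injured liver. Enzymes of several routes stood higher in AT3, most of all Gldc and Acmsd, and no member was called lower. Of all tested genes 4.68% were called in either direction. Of the 41 members 8 rose in AT3 over CPT (19.5%, against 2.46% of all tested genes), 0 fell (against 2.22%) and 33 did not pass the test. These 8 were Tat, Tdo2, Afmid, Acmsd, Sds, Gldc, Cth and Aass; 3 of them belong to tryptophan breakdown and the others to tyrosine, serine, glycine, methionine and lysine breakdown, with 0 from the histidine, alanine and aspartate, branched chain and proline routes. At an unadjusted p under 0.05 there were 19 members higher (10.4% of all tested genes were) and 2 lower (10.3%). DESeq2 also called 8 and 0, against 3.73% and 3.54% of the 11296 genes to which it gave an adjusted p. No member changed at least 2-fold with a call, against 0.753% of all tested genes. The median log2 fold change was 0.20 for members and 0 for all tested genes, 36 of 41 members had a positive value, and in 19 members all AT3 libraries lay above all CPT libraries (14.5% of all tested genes), in 2 below (12.5%).

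Gldc (chr19:30098447-30175429) changed most. It had 54.5, 52.1 and 57.0 CPM in AT3, 27.4, 21.3 and 33.4 CPM in CPT, and 27.5, 32.0 and 25.5 CPM in CON, so that AT3 stood apart while CPT and CON overlapped. The change was 1.99-fold in AT3 over CPT (log2 1.0 ± 0.136 SE, adjusted p = 0.00123). The other glycine cleavage proteins had log2 fold changes of 0.04 for Amt, 0.22 for Gcsh and 0.17 for Dld, without a call.

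Acmsd (chr1:127729413-127767978), which draws tryptophan carbon away from NAD synthesis, showed the same order of groups at a low level. It had 15.8, 16.1 and 16.4 CPM in AT3, 10.5, 7.29 and 9.54 CPM in CPT, and 10.1, 9.50 and 9.23 CPM in CON, a rise of 1.77-fold in AT3 over CPT (log2 0.82 ± 0.123 SE, adjusted p = 0.00199). In the 6 fits that each left out an AT3 or CPT library, Gldc and Acmsd were called in AT3 over CPT in all 6, Aass in 5, Tat, Afmid and Cth in 2, and Tdo2 and Sds in 1.

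The other members called had libraries given above, and in each of them every AT3 library lay above every CPT library. Afmid (chr11:117825924-117839908) rose 1.5-fold in AT3 over CPT (adjusted p = 0.0196), and its AT3 and CON libraries overlapped. Tat rose 1.47-fold (log2 0.55 ± 0.125 SE, adjusted p = 0.0208) and Tdo2 1.47-fold (adjusted p = 0.0306). Sds rose 1.58-fold (adjusted p = 0.0345), Aass 1.45-fold (adjusted p = 0.0101) and Cth 1.41-fold (adjusted p = 0.0169); for Tat, Tdo2, Sds, Aass and Cth the AT3 libraries lay farther from CON than the CPT libraries did. Gnmt had a fold change of 1.58 but an adjusted p of 0.158, its CPT_3 library lying among those of AT3.

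**Figure D4:**
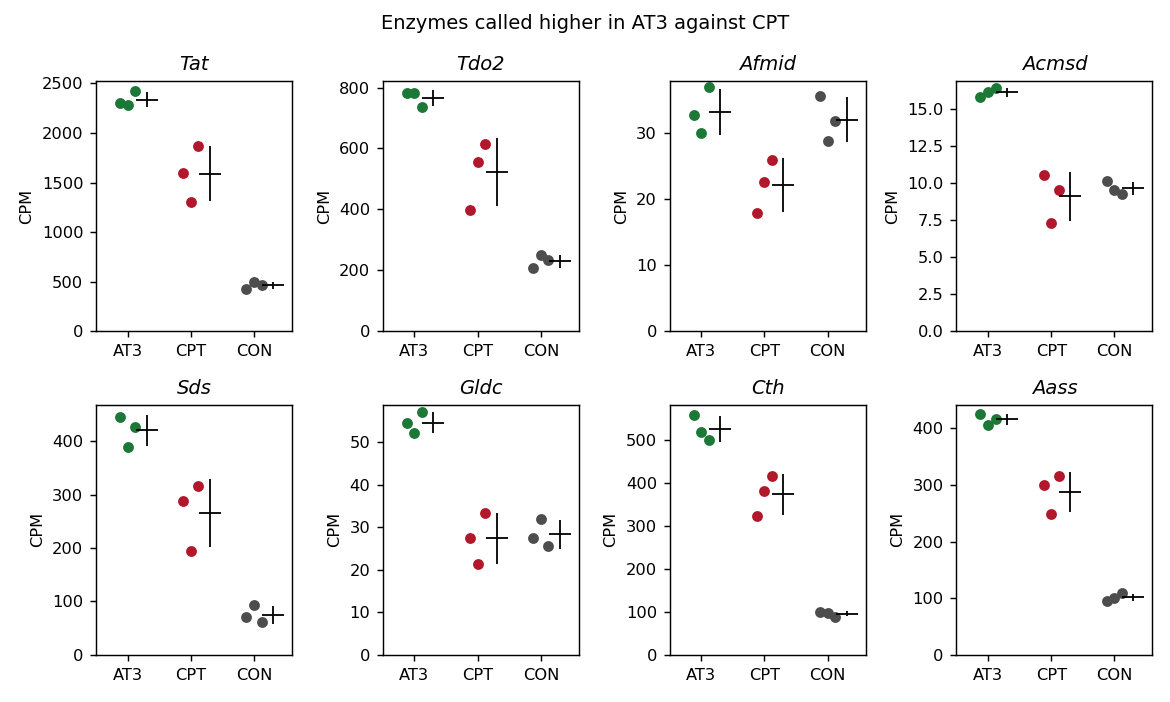
CPM of the 8 enzymes called higher in AT3 over CPT; points are libraries of AT3, CPT and CON, and the bar beside them is the mean with the SD over 3 libraries. AT3 libraries lie above all CPT libraries in each panel, by 1.41-fold for Cth to 1.99-fold for Gldc in the fit, and CON lies lowest in Tat, Tdo2, Sds, Cth and Aass.

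The count of 8 rests on few libraries. It was 2 without AT3_1, 14 without CPT_3, 3 without CPT_2 and 4 without CPT_1, AT3_2 or AT3_3 in turn, and 0 on log2(TPM + 1), where 29 genes of all those tested were called higher (0.212%) and 16 lower (0.117%), Gldc had an adjusted p of 0.0544 and Acmsd of 0.055. Over the fits that each left out 1 of the 9 libraries, 93 to 766 of all tested genes were called higher (337 with all libraries). CPT_3 was the CPT library nearest to the AT3 mean for 27 of 41 members (65.9%), against 40.9% of all tested genes.

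Set against CON, 29 members were higher in AT3 (31.5% of all tested genes were), 9 were lower (32.9%) and 3 did not pass, with a median log2 fold change of 0.74 against -0.0435 for all tested genes. At least 2-fold changes with a call were seen in 19 members (46.3%, against 32.4% of tested genes). On log2(TPM + 1) 30 members were called higher (51.3% of all tested genes) and 4 lower (12.4%). Mat1a stood 8.15-fold, Sds 5.61-fold, Cth 5.48-fold, Bhmt 5.45-fold and Tat 5.06-fold above CON. Amdhd1 stood lowest against CON, at 0.233 of its level, followed by Amt at 0.339 and Prodh2 at 0.424. Ahcy was also among the 9 called lower (log2 fold change -0.39, adjusted p = 0.0105). Its sum with Ahcyl rose by 1.30 (adjusted p = 4.21e-08), and on log2(TPM + 1) Ahcy was called higher (0.31). Hpd, Afmid and Bckdha did not pass. With upper-quartile scaling Kynu, Ivd, Mccc1, Mccc2 and Aldh4a1 lost their calls as higher, and Hpd was called lower (-0.29). This comparison shares its CON libraries with that of CPT against CON, so the counts are not independent.

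**Figure D5:**
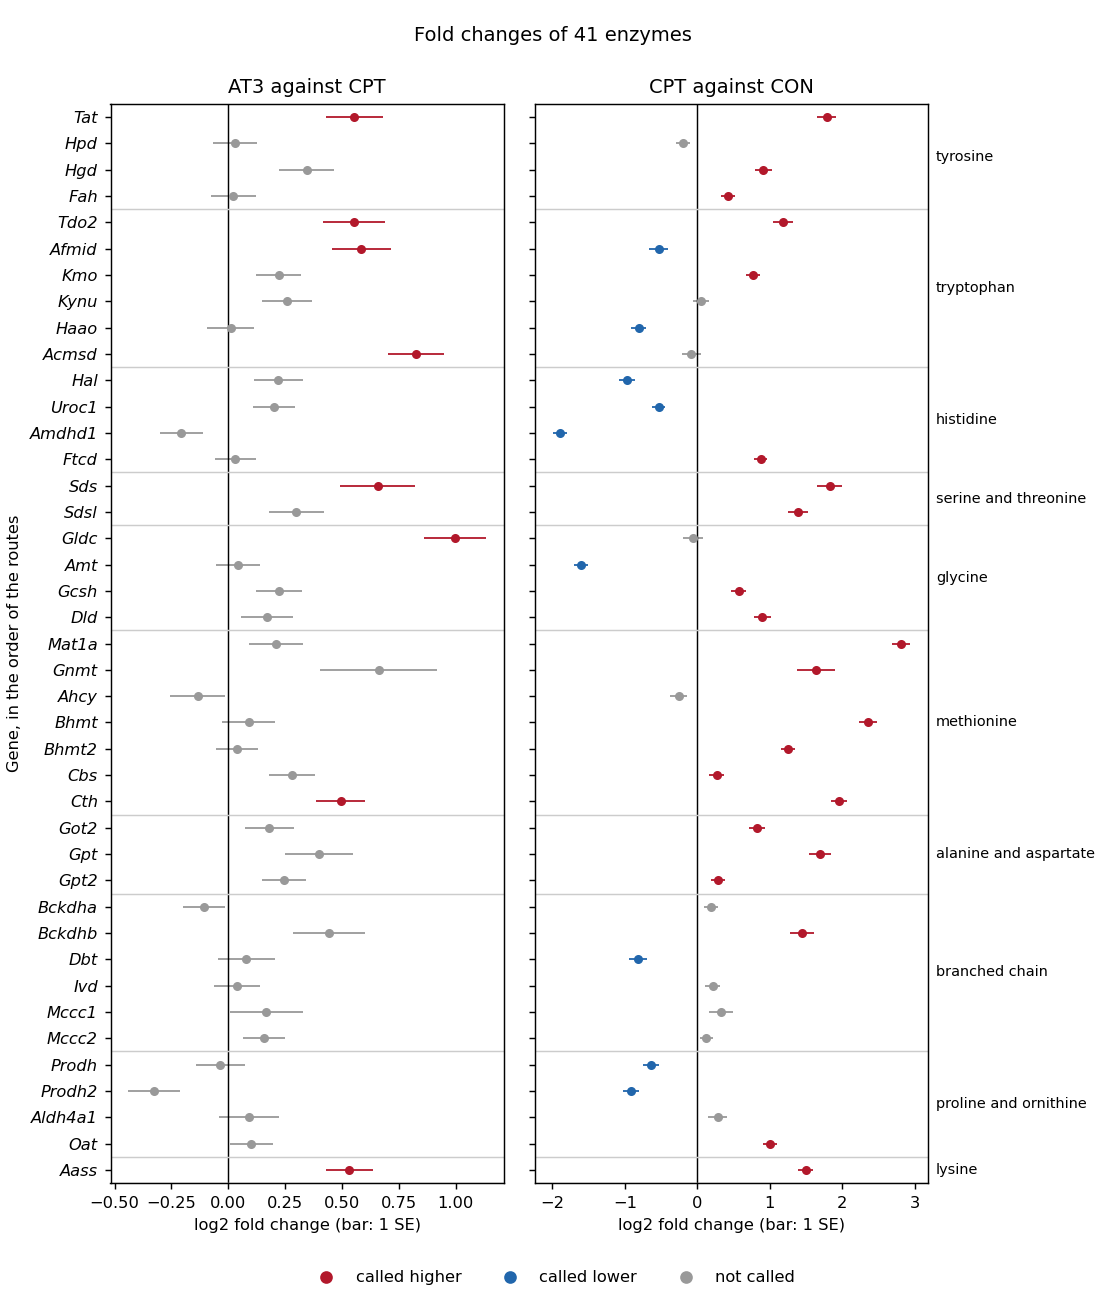
Log2 fold change of each of the 41 enzymes with its SE, in AT3 against CPT (left) and CPT against CON (right), in the order of the routes; red marks members called higher, blue those called lower and grey the rest, on axes of different width. On the left the 8 called members lie between 0.49 and 1.0, and on the right values run from -1.90 for Amdhd1 to 2.81 for Mat1a.

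Promoters were available from RefSeq (GRCm38.p6) for 34 of the 41 members, as 35 windows. The 250 bases before each start were searched on both strands for 5 short motifs. The C/EBP core TTGCNNAA was in 5 of 35 member windows, and in 9.56% of all 32851 windows of this length. The HNF1 core GTTAAT was in 5 (6.43% of all), the TATA core TATAAA in 5 (12.4%), the cAMP response core CGTCA in 3 (17.8%) and the glucocorticoid receptor core TGTTCT in 2 (16.1%). The windows with a C/EBP core belong to Aass, Dld and Hgd, which rose in CPT over CON, and to Hal and Prodh2, which fell. Of these, 4 are shown because members with the same core moved in opposite directions; capitals mark any match to the 5 motifs, none of which overlap. The Aass window lies at chr6:23132987-23133236 on the minus strand, that of Hgd at chr16:37579903-37580152, that of Hal at chr10:93488518-93488767 and that of Prodh2 at chr7:30493408-30493657, these 3 on the plus strand, and all are written 5′ to 3′ along the gene.
Aass: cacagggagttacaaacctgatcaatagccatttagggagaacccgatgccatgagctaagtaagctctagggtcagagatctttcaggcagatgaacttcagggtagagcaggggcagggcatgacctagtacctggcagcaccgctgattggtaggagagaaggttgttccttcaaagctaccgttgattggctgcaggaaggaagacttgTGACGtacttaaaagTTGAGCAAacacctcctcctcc
Hgd: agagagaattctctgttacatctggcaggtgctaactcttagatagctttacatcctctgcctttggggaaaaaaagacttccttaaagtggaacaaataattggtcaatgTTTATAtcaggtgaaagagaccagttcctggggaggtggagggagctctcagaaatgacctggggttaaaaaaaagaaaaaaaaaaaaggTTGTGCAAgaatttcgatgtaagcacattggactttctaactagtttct
Hal: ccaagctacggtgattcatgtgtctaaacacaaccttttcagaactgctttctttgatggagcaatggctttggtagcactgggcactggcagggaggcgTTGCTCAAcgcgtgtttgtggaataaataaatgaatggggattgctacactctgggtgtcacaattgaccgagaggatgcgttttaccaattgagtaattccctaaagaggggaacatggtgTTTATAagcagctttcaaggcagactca
Prodh2: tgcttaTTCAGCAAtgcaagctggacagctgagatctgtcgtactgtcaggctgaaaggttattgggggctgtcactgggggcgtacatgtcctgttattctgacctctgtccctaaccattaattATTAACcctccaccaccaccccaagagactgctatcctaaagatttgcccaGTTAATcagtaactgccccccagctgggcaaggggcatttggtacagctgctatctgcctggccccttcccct

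The C/EBP core begins 22 bases before the start in Aass, 49 in Hgd, 150 in Hal and 244 in Prodh2. A match of letters is a description and not evidence of binding.

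Regulators of these genes were measured as well, and 10 listed ones were tested. In CPT over CON 5 rose (50%, against 30.0% of all tested genes), 3 fell (30.0%, against 30.8%) and 2 did not pass. In AT3 over CPT 2 rose (20%, against 2.46%) and 2 fell (20%, against 2.22%). Ppargc1a, a coactivator of the fasting response, had 10.6, 10.9 and 9.56 CPM in AT3, 9.47, 5.60 and 9.65 CPM in CPT, and 2.08, 2.75 and 2.70 CPM in CON, and rose by 1.70 on the log2 scale (adjusted p = 3.73e-06). Foxo1, a transcription factor restrained by insulin, rose by 0.81 in CPT over CON and by 0.57 in AT3 over CPT (adjusted p = 0.00481). Gcgr, the glucagon receptor, fell by 0.70 in CPT over CON and by 0.35 in AT3 over CPT (adjusted p = 0.0453), and Cebpb rose by 0.58 in CPT over CON. Cebpa and Klf15, named after their values were seen, made up the other calls between AT3 and CPT: Cebpa had 137, 131 and 149 CPM in AT3, 204, 232 and 175 CPM in CPT, and 323, 285 and 362 CPM in CON, and fell by 0.55 in AT3 over CPT (adjusted p = 0.0159), while Klf15 rose by 0.41 (adjusted p = 0.0402).

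Of 61 further genes of amino acid breakdown listed by symbol, 58 matched a row and 54 were tested. In CPT over CON 24 rose, 18 fell and 12 did not pass, that is 44.4% and 33.3% against 30.0% and 30.8% of all tested genes, with a median log2 fold change of 0.03. Got1, the cytosolic aspartate transaminase, moved most: it had 727, 592 and 678 CPM in AT3, 242, 156 and 374 CPM in CPT, and 20.3, 23.5 and 17.6 CPM in CON. Its log2 fold change was 3.65 ± 0.244 SE in CPT over CON (adjusted p = 5.55e-09) and 1.37 ± 0.218 SE in AT3 over CPT (adjusted p = 0.00308), with no overlap between any groups. Gstz1, which acts between Hgd and Fah, rose by 1.0 on the log2 scale in CPT over CON, Gcdh of lysine breakdown by 1.42 and Dmgdh of choline and glycine metabolism by 1.36. Ethe1 of sulfide oxidation fell by 1.49 and Kyat1, a kynurenine aminotransferase, by 1.25. In the routes whose members all rose, 1 of these further genes rose and 2 fell for serine and threonine. Counts were 4 and 1 for alanine and aspartate, and 2 and 1 for lysine.

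In AT3 over CPT 6 of these 54 genes rose (11.1%, against 2.46% of all tested genes), 1 fell (1.85%, against 2.22%) and 47 did not pass. Among the risers were Got1, Aadat, Suox, Cdo1 and Pcca, the last 4 named after their values were seen. Cdo1, which oxidises cysteine, had 1449, 1493 and 1550 CPM in AT3, 1130, 993 and 1013 CPM in CPT, and 1120, 1265 and 1048 CPM in CON (log2 fold change of AT3 over CPT 0.52, adjusted p = 0.0123). Aspg, an asparaginase, was the gene that fell, with 25, 20.9 and 21.7 CPM in AT3, 43.6, 41.4 and 28.3 CPM in CPT, and 118, 134 and 116 CPM in CON (log2 fold change of AT3 over CPT -0.75, adjusted p = 0.00865).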

How the data were processed

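Total liver RNA went into 9 libraries (SMARTer mRNA kit, per the labels' protocols). The sources used here do not give strand, aligner or counter. The authors deposited estimated counts per gene and TPM values. The submitters' processing notes name GRCm38, mm10 and GRCm39 with no role; positions here come from GENCODE M21 (GRCm38) by gene ID. Of the deposited estimated counts 7.96% to 9.55% per library were not whole, and all were rounded. The members, gene lists and tests were chosen with earlier results of these data known.

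Counts were tested with edgeR 4.0.16 in R 4.3.3, with TMM scaling, filterByExpr by group and glmQLFit over the 3 groups together, all 9 libraries sharing the spread. P-values were adjusted by Benjamini-Hochberg over 13686 genes and called at 0.05. TMM factors were 1.05 to 1.13 in AT3, 1.07 to 1.13 in CPT and 0.726 to 0.963 in CON. The SE of a log2 fold change follows from the F statistic. The authors' TPM served for levels between genes and for limma 3.58.1 on log2(TPM + 1) or + 0.1. In each library 3 counts equal 0.0934 to 0.169 CPM. Library pairs within groups all differed beyond sampling noise (chi-square per degree of freedom 7.07 to 97.0). Full values are given for the 2 members of each route with the smallest p in CPT against CON. They are also given for the 6 with the smallest p in AT3 against CPT, and for Tat, Tdo2, Hal, Sds, Gnmt and Cth. Of other listed genes, the rule names up to 2 a route and 4 regulators by the smallest p in CPT against CON. Some of these are given by a log2 fold change without library values. Some other listed genes that the rule names are counted but not reported here by name. The scripts were tested on simulated data with 200 changed genes. Of genes changed 1.5-fold, 36.7% were recovered in CPT against CON, 34.9% in AT3 against CPT and 29.5% in AT3 against CON. At 4-fold these shares were 92.2%, 85.9% and 91.8%, and 8, 19 and 12 unchanged genes were called. A member without a call may therefore still have changed by a small amount. Alternatives were DESeq2 1.42.0, other scalings, no filter, each library left out, the replicate block, and summing or leaving out rows that share sequence, these last chosen after seeing the data.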

Additional observations from a re-analysis of the deposited data

How the results depend on the processing

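Without each library in turn, the members called higher in AT3 over CPT numbered 2 to 14 (8 with all libraries). Of all tested genes 93 to 766 were called higher (337 with all libraries) and 172 to 1316 in either direction (641 with all). The median log2 fold change of members was then 0.16 to 0.27 in AT3 against CPT, 0.23 to 0.50 in CPT against CON and 0.73 to 0.80 in AT3 against CON. In AT3 against CPT the sign turned in some of these fits for members that were not called: Aldh4a1 (-0.0667 to 0.23), Bhmt2 (-0.00293 to 0.0638), Dbt (-0.0194 to 0.20), Fah (-0.0345 to 0.0655), Haao (-0.0505 to 0.0833), Ivd (-0.0442 to 0.10), Prodh (-0.10 to 0.0722) and the share of Gpt in its pair (-0.719 to 1.59 points). In CPT against CON it turned for Acmsd (-0.14 to 0.0733), Gldc (-0.21 to 0.11) and Kynu (-0.00469 to 0.19), and in AT3 against CON for Afmid (-0.0174 to 0.14).

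On log2(TPM + 1), and with 0.1 in place of 1, members called lower were 3 and 3 in CPT against CON and 4 and 4 in AT3 against CON, members called higher in AT3 over CPT were 0 and 0, and genes called there 45 and 32. Member medians on these scales were 0.85 and 0.90 in CPT against CON, 0.26 and 0.26 in AT3 against CPT, and 1.19 and 1.22 in AT3 against CON. The median in AT3 against CON was 0.61 with upper-quartile scaling, 0.77 without mitochondrially encoded and the 10 most abundant genes and 0.83 without the filter on low counts. Without that filter 1174 genes were called in AT3 against CPT.

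Signs turned on these TPM scales, in CPT against CON, for Hpd (0.0147 and 0.0147), Acmsd (0.38 and 0.47), Uroc1 (0.0654 and 0.0676), Gldc (0.44 and 0.51) and Ahcy (0.33 and 0.34). In AT3 against CON they turned for Hpd (0.11 and 0.11), Uroc1 (0.35 and 0.36) and Ahcy (0.31 and 0.31), and in AT3 against CPT for Haao (-0.00934 and -0.00937) and Prodh (0.0505 and 0.0513). Upper-quartile scaling turned Kynu (-0.0482, CPT against CON), Fah (-1.385e-06) and Haao (-0.0141, AT3 against CPT), and Afmid (-0.0757) and Bckdha (-0.0445, AT3 against CON). Without the filter Acmsd (0.00462) and Gldc (0.0299) turned in CPT against CON, and with only the 6 libraries compared Haao (-0.00373) in AT3 against CPT. Summing Ahcy with Ahcyl gave 0.93 in CPT against CON, 0.37 in AT3 against CPT and 1.30 in AT3 against CON. The causes were not tested.

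Deviations of same-numbered libraries correlated weakly, at -0.04 to 0.08 over all comparisons. In AT3 against CPT they correlated at 0.0518 to 0.0762, and those of differently numbered libraries at -0.0577 to -0.0185. Whether replicate numbers pair the libraries is therefore not settled. With the replicate block 7 of the 41 members were called higher and 0 lower in AT3 over CPT. Counts were 22 and 9 in CPT over CON, and 28 and 9 in AT3 over CON. The shares of all tested genes called with the block are not given here. The next counts leave out the 6 members that share at least 20% of their sequence words with another row. They were 7 and 0, 20 and 8, and 26 and 8 in the same order of comparisons. That step used the fit as reported, in which 2.46% and 2.22%, 30.0% and 30.8%, and 31.5% and 32.9% of all tested genes were called. Upper-quartile scaling put the median of all tested genes at -0.124 in CPT against CON and -0.171 in AT3 against CON.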

Other observations

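Shares within other pairs of related members, on TPM, were as follows. Bhmt held 97.2% ± 0.0594 of Bhmt plus Bhmt2 in AT3, 97.1% ± 0.157 in CPT and 93.9% ± 0.264 in CON (SD, n = 3 each; two-sided exact permutation p = 0.1 in CPT against CON and 0.4 in AT3 against CPT). Sds held 95.1% ± 0.361 of Sds plus Sdsl in AT3, 93.7% ± 1.01 in CPT and 92.8% ± 0.310 in CON (exact p = 0.1 in AT3 against CPT and 0.3 in CPT against CON). Prodh held 61.9% ± 2.39 of Prodh plus Prodh2 in AT3, 57.2% ± 4.38 in CPT and 51.3% ± 1.52 in CON (exact p = 0.2 in AT3 against CPT and in CPT against CON). No p of these 15 tests can go below 0.1.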
